A study of Mus musculus with 18 samples.

Results

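Conjugating enzymes attach a polar group to drugs, hormones and products of metabolism, and carboxylesterases split ester bonds in drugs and lipids. In the count table, 81 of 32285 genes belonged by symbol to 4 such classes. They are the UDP-glucuronosyltransferases (UGTs), the sulfotransferases (SULTs), the glutathione S-transferases other than the microsomal ones (GSTs) and the carboxylesterases of families 1 to 3. The 61 genes with at least 10 counts summed over 18 libraries are described here, after names ending in -ps were left out: 15 UGTs, 10 SULTs, 21 GSTs and 15 carboxylesterases. The other 20 had 0 to 9 counts, among them the bilirubin-conjugating Ugt1a1 with 9, Ces1b with 8 and Gstt4 with 8. Of the 61, 12 had too few counts to test (11 to 42 over all libraries): Ces1a, Ces1c, Ces1h, Ces2a, Ces3a, Gstm3, Sult1e1, Sult6b1, Ugt1a10, Ugt1a5, Ugt2b35 and Ugt2b36. Just above the minimum stood Ces1c with 11 and Ugt1a5 with 12 counts.

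RNA was sequenced from frozen kidney of male C57BL/6 iKspCre-Pkd1del mice, in which a Cre recombinase that acts only in kidney and only after tamoxifen removes exons 2 to 11 of Pkd1. Loss of Pkd1, the gene most often mutated in human polycystic kidney disease, gives tubular cysts. Tamoxifen was given by mouth at 12.5 mg/kg on postnatal days 18 and 19, and mice were killed in a mild cystic stage judged by magnetic resonance imaging. From each of 3 kidneys, 2 libraries were made from non-cystic tissue, 2 from tissue around cysts with a low signal for F4/80 (a macrophage surface protein) and 2 from tissue around cysts with a high signal. All libraries are labelled as from Pkd1 knockout kidneys, so non-cystic regions are the reference and not wild-type kidney. How many cells of each region carry the deletion was not measured here. Kidneys 1 and 3 have a labelled age of 269 and kidney 2 of 297, with no unit, and whether the kidneys came from separate mice is not stated.

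The kidney, and within it the proximal tubule, is one of the main sites of these reactions outside the liver. UGTs sit in the endoplasmic reticulum and transfer glucuronic acid from UDP-glucuronate, or another sugar in the Ugt3a branch. SULTs are cytosolic and take sulfate from the donor PAPS. GSTs couple glutathione to electrophiles, and the products are trimmed and acetylated in the tubule to mercapturates. Carboxylesterases lie in the lumen of the endoplasmic reticulum.

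Each non-cystic library held 5366651 to 9002054 counts, each F4/80-low library 7186518 to 9188813, and each F4/80-high library 5841975 to 8662288. The 61 genes took 0.804 to 1.12% of the counts of non-cystic, 0.6 to 1.13% of F4/80-low and 0.282 to 0.776% of F4/80-high libraries. Both libraries made from the same kidney and region type were added up, so each value below is 1 of 9 sums, in CPM (the count scaled to the size of its library) with sizes corrected by the trimmed mean of M values. Markers of several cell types moved with the regions. The summed level of 10 proximal tubule markers ranged from 8172 to 11030 CPM over non-cystic, from 5925 to 8954 over F4/80-low and from 385 to 1782 over F4/80-high sums, and that of 8 macrophage markers was 98.0 to 127, 391 to 483 and 2078 to 5560. Injured tubule markers summed to 1409 to 2848, 7432 to 47000 and 60150 to 82530 CPM, and fibroblast markers to 63.7 to 86.8, 304 to 386 and 751 to 1529. Of them 4 of 6 injured tubule, 4 of 6 tested fibroblast and 3 of 8 macrophage genes were already called higher in F4/80-low regions. Distal convoluted tubule markers summed to 1224 to 2083, 431 to 648 and 47.9 to 448 CPM. No proximal tubule marker was at 0. In F4/80-high tissue, kidney 3 had the lowest proximal tubule sum (385 CPM, against 1466 in kidney 1 and 1782 in kidney 2) and the highest macrophage sum (5560, against 2078 and 2350). The part of these shifts in the results below was not tested, and in pieces of tissue fewer cells of a type cannot be told apart from less RNA per cell.

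Around F4/80-low cysts the 4 classes showed no called change. Around F4/80-high cysts 27 of the 49 tested genes were lower, with the lowest fold changes among the Ces1 carboxylesterases, while 9 were higher: the UGT Ugt2b37, the mu-class GST Gstm6, the omega-class GST Gsto1, the phenol sulfotransferase Sult1a1 and 5 genes at low level. In edgeR's quasi-likelihood test with the kidney as block, 49 of the 61 genes passed the filter on low counts, and a gene was called at a Benjamini-Hochberg adjusted p below 0.05 over all 16034 genes tested. In F4/80-high against non-cystic regions 27 of 49 were lower (55.1%), where 19.5% of all genes were, and 9 were higher (18.4%), where 19.7% of all genes were. The share of higher genes was thus near that of all genes. In F4/80-low against non-cystic regions 0 were higher and 0 lower, where 1.51% and 0.0249% of all genes were. In F4/80-high against F4/80-low regions 23 were lower (46.9%), where 14.0% of all genes were, and 3 were higher (6.12%), where 10.3% were. The median log2 fold change in F4/80-high against non-cystic regions was -1.36 over the 49 tested and 0.04 over all genes. All 36 called genes moved the same way in 3 of 3 kidneys. The 3 F4/80-high sums lay wholly apart from the 3 non-cystic sums for 27 of the 27 lower and 7 of the 9 higher genes. Calling selects for such agreement, and the share over all called genes was not worked out, so these counts add no support to the calls.

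**Figure D1:**
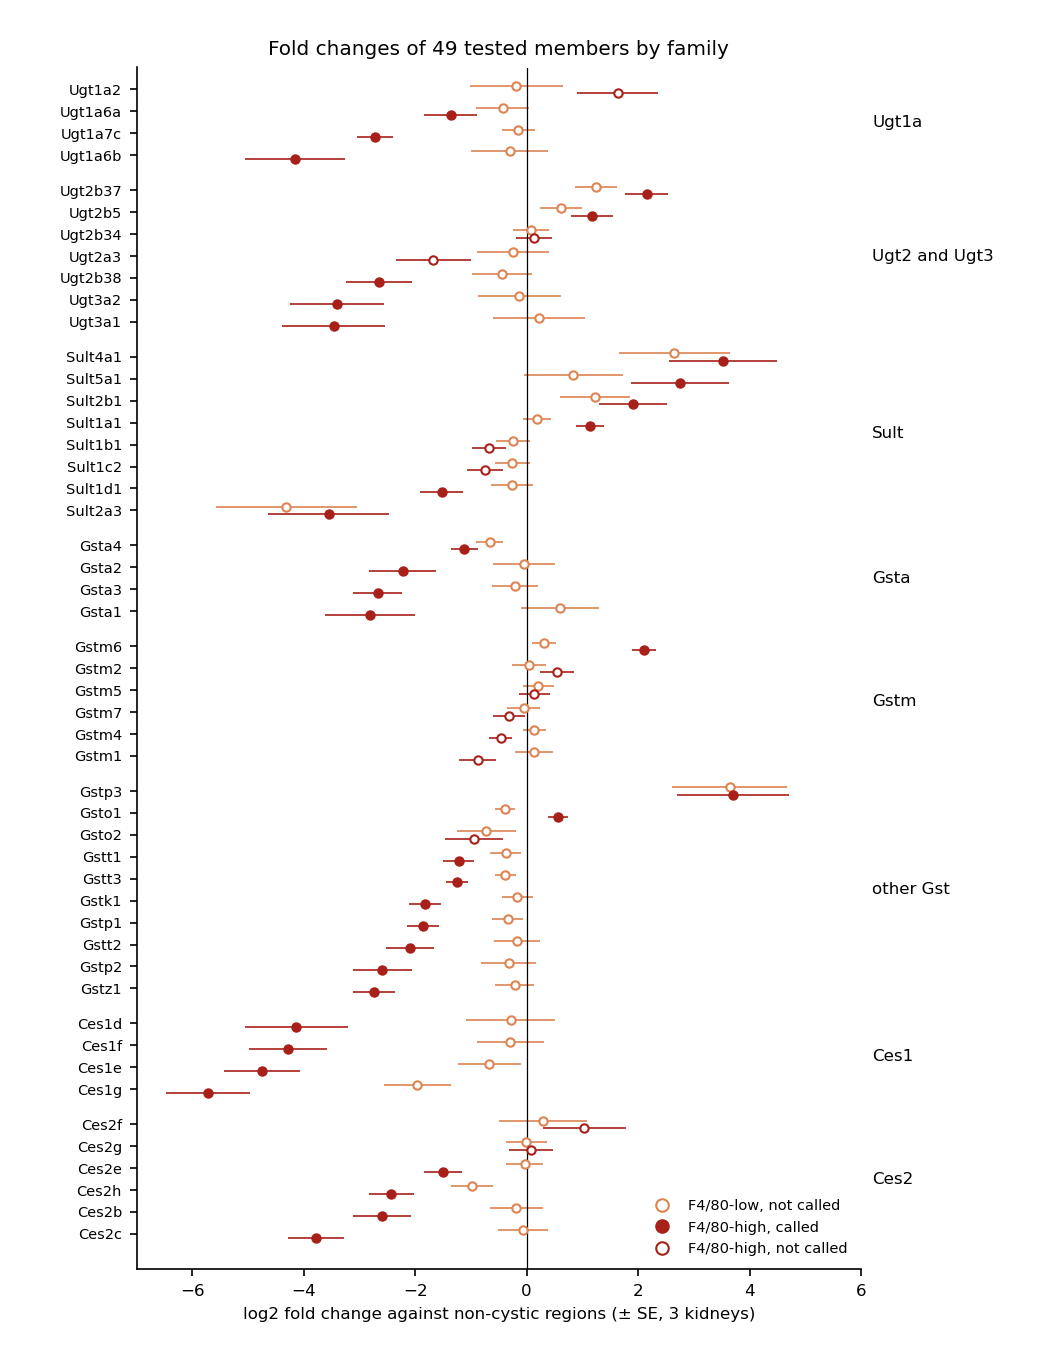
Log2 fold change (x axis) of the 49 tested genes (y axis, by family) in F4/80-low (orange) and F4/80-high (red) against non-cystic regions; points are estimates over 3 kidneys, bars ± 1 SE, and filled points are called. No orange point is filled, and among the red points Ces1g (-5.72), Ces1e (-4.75) and Ces1f (-4.28) lie farthest to the left.

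Among the UGTs, Ugt2b38 and Ugt2b37 of the Ugt2 cluster moved in opposite directions. UGT2B enzymes glucuronidate steroids and many drugs, and these genes lie on the minus strand of chromosome 5 with Ugt2a3 between them (Ugt2b37, ENSMUSG00000057425, 87240493 to 87254804; Ugt2b38, ENSMUSG00000061906, 87409942 to 87424203; all positions are in GRCm38). Their promoters are shown because they are near copies of each other. The windows run from 250 bases before to 50 after the RefSeq start (GRCm38.p6, minus strand, chr5:87254739-87255038 and chr5:87424154-87424453). Of 286 aligned bases 274 are identical (95.8%), and capitals mark bases that differ or have no partner in the alignment.
Ugt2b37: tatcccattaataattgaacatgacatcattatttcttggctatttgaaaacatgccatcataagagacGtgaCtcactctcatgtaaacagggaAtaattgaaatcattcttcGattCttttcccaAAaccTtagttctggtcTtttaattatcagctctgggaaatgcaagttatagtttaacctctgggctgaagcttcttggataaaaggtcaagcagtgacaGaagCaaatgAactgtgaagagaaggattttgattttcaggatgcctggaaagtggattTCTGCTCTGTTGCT
Ugt2b38: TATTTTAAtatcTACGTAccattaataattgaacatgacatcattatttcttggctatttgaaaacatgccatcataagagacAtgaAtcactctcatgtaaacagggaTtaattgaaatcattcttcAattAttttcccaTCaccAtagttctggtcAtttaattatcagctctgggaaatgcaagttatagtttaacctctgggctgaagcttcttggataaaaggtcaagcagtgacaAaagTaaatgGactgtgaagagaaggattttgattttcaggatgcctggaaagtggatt

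Ugt2b38 measured 2181, 1267 and 1845 CPM in kidneys 1, 2 and 3 of the non-cystic, 1456, 881 and 1486 of the F4/80-low and 655, 262 and 73.3 of the F4/80-high regions. Ugt2b37 measured 234, 119 and 68.6 CPM in non-cystic, 239, 294 and 340.5 in F4/80-low and 833, 512 and 445 in F4/80-high sums. All 3 F4/80-high sums of Ugt2b38 were below, and all 3 of Ugt2b37 above, every other sum. Against non-cystic regions Ugt2b38 fell by 2.64 ± 0.59 on the log2 scale (± SE, adjusted p = 0.00765) and Ugt2b37 rose by 2.15 ± 0.38 (adjusted p = 0.0021). The ratio of their counts, Ugt2b37 over Ugt2b38, was 0.107, 0.0941 and 0.0372 in non-cystic, 0.164, 0.334 and 0.229 in F4/80-low and 1.27, 1.96 and 6.07 in F4/80-high regions. It was thus higher in all 3 kidneys at each step, with no overlap between region types. The pair was chosen for its opposite changes, so the ratio is a description. An exact permutation test of its log2, with the sums taken as unpaired, gave a two-sided p = 0.1 for each pair of region types. That is the lowest value possible with 3 sums per group, so the test cannot decide. The transcripts are 93.5% identical, with a longest shared run of 118 bases, so some reads may fit both genes and be left out or misplaced. The highest F4/80-high library of Ugt2b37, kidney 1 replicate 1, had 1207 CPM, and the lowest had 441. In F4/80-low regions Ugt2b37 stood 1.24 ± 0.38 above non-cystic, higher in 3 of 3 kidneys, and did not pass (adjusted p = 0.197).

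The Ugt3a pair was lower around F4/80-high cysts. Ugt3a2 (chromosome 15, 9335550 to 9370955) had 1369, 1054 and 1330 CPM in non-cystic, 979.9, 809 and 1544 in F4/80-low and 171, 194 and 17.8 in F4/80-high sums. Ugt3a1, its neighbour (chromosome 15, 9276888 to 9315032), had 95, 58.9 and 64.8 CPM in non-cystic, 62.3, 58.1 and 123 in F4/80-low and 7.68, 12.6 and 0.72 in F4/80-high sums. In both, kidney 3 of the F4/80-high regions was far below the other F4/80-high kidneys, and no F4/80-high sum reached a non-cystic one. Ugt3a2 fell by 3.40 ± 0.84 (adjusted p = 0.0165) and Ugt3a1 by 3.46 ± 0.93 (adjusted p = 0.0292) in F4/80-high against non-cystic regions. Without the F4/80-high library kidney 3 replicate 2 neither passed (Ugt3a2 -3.55, adjusted p = 0.113; Ugt3a1 -3.48, adjusted p = 0.0506). Both also missed the threshold without kidney 1 and with no filter beyond 1 count, and Ugt3a1 without kidney 2, at adjusted p up to 0.109 for Ugt3a2 and 0.119 for Ugt3a1 in these settings.

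The Ugt1a genes share their last exons and differ in the first, so a counter that drops reads of more than 1 gene keeps only part of them, and the split between them is uncertain. Ugt1a7c (chromosome 1, 88095062 to 88220002) held 7647 of the counts. Of its 1915 exon bases that no other Ugt1a model covers, 998 lie past the end of every other model, where reads from any of these genes could fall. It measured 109.7, 89.2 and 74.5 CPM in non-cystic, 74.4, 64.4 and 101 in F4/80-low and 19.2, 15.3 and 7.73 in F4/80-high sums, and fell by 2.72 ± 0.32 in F4/80-high against non-cystic regions (adjusted p = 0.000375). The 3 F4/80-high values lay below every other. Ugt1a6b had 40 counts over the 3 non-cystic and 3 over the 3 F4/80-high sums, a ratio of 20.2 with an exact 95% counting interval of 6.43 to 102.0 (adjusted p = 0.00551). Ugt1a6a was called at the edge (-1.36 ± 0.48, adjusted p = 0.0459) and missed the threshold in 19 of 31 alternatives. Ugt1a2 did not pass (1.64 ± 0.72, adjusted p = 0.102).

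Of the other Ugt2 genes, Ugt2b5 was higher around F4/80-high cysts, at 3.71, 2.41 and 2.48 CPM in non-cystic, 4.69, 4.34 and 3.76 in F4/80-low and 13.8, 4.36 and 3.65 in F4/80-high sums. Only kidney 1 stood clear of the rest, and the F4/80-high and non-cystic values overlapped. Its log2 fold change was 1.17 ± 0.38 (adjusted p = 0.0331), and 0.69, adjusted p = 0.261, without kidney 1. The call was also lost without the non-cystic library kidney 1 replicate 1 (0.86, adjusted p = 0.0997) without kidney 2 (1.30, adjusted p = 0.0851) and without the F4/80-high library kidney 3 replicate 2 (1.03, adjusted p = 0.098). Its transcript shares a run of 444 bases with Ugt2b38, whose level was far higher. Ugt2b34 (0.13 ± 0.32) and Ugt2a3 (-1.67 ± 0.68) did not pass.

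**Figure D2:**
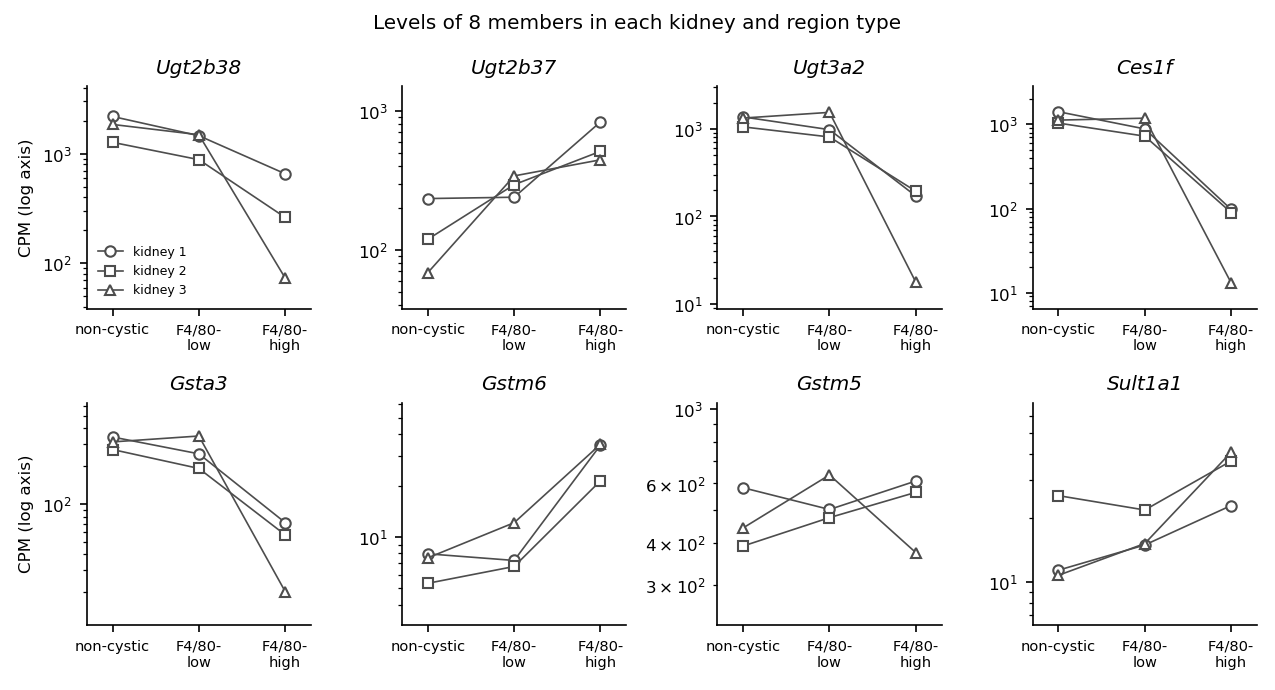
CPM (y axis, log scale) of 8 genes in non-cystic, F4/80-low and F4/80-high regions (x axis); each symbol is 1 kidney and lines join the sums of a kidney. Ugt2b38, Ugt3a2, Ces1f and Gsta3 drop in every kidney at F4/80-high, and Ugt2b37, Gstm6 and Sult1a1 are higher there in every kidney, while the 3 kidneys of Gstm5 overlap.

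Of 8 tested sulfotransferases 4 rose, 2 fell and 2 did not pass in F4/80-high against non-cystic regions. Over all genes 19.7% rose and 19.5% fell there, and 3 of the 4 that rose stood at low level. The abundant Sult1d1, known for sulfation of catecholamines (chromosome 5, 87554645 to 87569027), measured 862, 938 and 871 CPM in non-cystic, 586, 682 and 914 in F4/80-low and 413, 391 and 150.4 in F4/80-high sums. It fell by 1.52 ± 0.39 in F4/80-high against non-cystic regions (adjusted p = 0.0118), with no overlap. The call was lost without the F4/80-high library kidney 1 replicate 2 (-1.26, adjusted p = 0.0638) and without kidney 1 (-1.82, adjusted p = 0.0507). The next in level, Sult1c2, had 216, 192 and 171 CPM in non-cystic, 180.2, 136 and 166 in F4/80-low and 209, 113 and 54.9 in F4/80-high sums. In F4/80-high tissue kidney 1 was within the non-cystic range and kidneys 2 and 3 were below it, and the gene did not pass (-0.75 ± 0.32, adjusted p = 0.0928).

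Sult1a1, the general phenol sulfotransferase (chromosome 7, 126672865 to 126676432), went the other way. Its values were 11.4, 25.5 and 10.8 CPM in non-cystic, 15.0, 21.8 and 15.2 in F4/80-low and 22.9, 37.0 and 40.6 in F4/80-high sums, higher in F4/80-high tissue of each kidney although kidney 1 there was below kidney 2 of the non-cystic regions. It rose by 1.15 ± 0.25 against non-cystic (adjusted p = 0.00583) and by 0.95 ± 0.25 against F4/80-low regions (adjusted p = 0.0215). Of its exon bases 96.0% are free of the overlapping gene Sgf29, on the other strand, and the counting may not separate the rest. The first of these calls was kept in all 32 alternatives.

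Sult2b1, Sult4a1 and Sult5a1 were also higher in F4/80-high than in non-cystic regions, all at 5 CPM or less in every sum. Sult2b1, which sulfates cholesterol and other hydroxysteroids, had 0.62, 0.73 and 0.16 CPM in non-cystic and 1.16, 2.38 and 1.99 in F4/80-high sums (1.91 ± 0.61, adjusted p = 0.0322). Sult4a1, best known from brain, had 4 counts over the 3 non-cystic and 78 over the 3 F4/80-high sums, or 0.18, 0.15 and 0 against 0.42, 1.63 and 2.04 CPM (3.53 ± 0.97, adjusted p = 0.0169). Sult5a1 had 21 and 193 counts, or 0, 0.8 and 0.78 against 5, 2.08 and 3.09 CPM (2.75 ± 0.88, adjusted p = 0.0327). In none of them did the F4/80-high and non-cystic sums overlap. F4/80-low sums lay between or among them, at 0.75, 1.97 and 0.9 CPM for Sult2b1, 0.48, 1.25 and 0.45 for Sult4a1 and 0.75, 1.64 and 0.53 for Sult5a1. Each call was lost without at least 1 library: Sult2b1 without non-cystic kidney 1 replicate 2 (1.56, adjusted p = 0.115) and 4 others, Sult4a1 without F4/80-high kidney 1 replicate 2 (3.25, adjusted p = 0.0804), and Sult5a1 without non-cystic kidney 3 replicate 2 (2.59, adjusted p = 0.0532) or F4/80-high kidney 3 replicate 2 (2.65, adjusted p = 0.0526). The Sult2b1 and Sult5a1 calls were also lost without any 1 kidney and with only the 2 region types compared, at adjusted p up to 0.164 for Sult2b1 and 0.146 for Sult5a1, and the Sult4a1 call without kidney 3 (2.49, adjusted p = 0.0674). Sult2a3, a hydroxysteroid sulfotransferase, fell from 340 counts in non-cystic to 44 in F4/80-high sums (-3.55 ± 1.09, adjusted p = 0.0371), and 8 of 31 alternatives lost the call. Over the F4/80-low sums it had 17 counts, fewer than in either other region type.

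The alpha-class GSTs were lower together around F4/80-high cysts. Alpha GSTs are cytosolic GSTs found in the proximal tubule and also reduce lipid peroxides. Gsta3 (chromosome 1, 21240589 to 21265661) measured 342, 272 and 312 CPM in non-cystic, 251, 192 and 348 in F4/80-low and 71.6, 57.2 and 20.3 in F4/80-high sums. Gsta2 (chromosome 9, 78331018 to 78355788) had 581, 319 and 346 CPM in non-cystic, 346, 311 and 470.3 in F4/80-low and 121, 139 and 24.0 in F4/80-high sums. Gsta4, which acts on the lipid peroxidation product 4-hydroxynonenal, had 46.0, 70.7 and 88.1 CPM in non-cystic, 47.3, 43.9 and 34.4 in F4/80-low and 25.0, 37.9 and 31.0 in F4/80-high sums. No F4/80-high sum of these genes reached a non-cystic one, and kidney 3 was lowest for Gsta2 and Gsta3. Relative to non-cystic regions, Gsta3 in F4/80-high tissue fell by 2.67 ± 0.44 (adjusted p = 0.00201), Gsta2 by 2.23 ± 0.59 (adjusted p = 0.0208) and Gsta4 by 1.12 ± 0.24 (adjusted p = 0.00542). Gsta2 missed the threshold without the F4/80-high library kidney 3 replicate 2 (-2.38, adjusted p = 0.064), without kidney 1 (-2.25, adjusted p = 0.103) and with no filter beyond 1 count (-2.23, adjusted p = 0.117). Gsta4 missed it under scaling by total counts (-0.52, adjusted p = 0.165). Gsta1, 97.2% identical to Gsta2 and at most 4.99 CPM in any sum, fell by 2.81 ± 0.81 (adjusted p = 0.0201), a call lost without the F4/80-low library kidney 2 replicate 2 (-2.41, adjusted p = 0.0549), without kidney 1 (-2.56, adjusted p = 0.0998) and without kidney 3 (-2.22, adjusted p = 0.0939).

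The mu class behaved differently gene by gene, and Gstm6 was its called member. Mu GSTs lie in a row on chromosome 3 and handle epoxides and other electrophiles. Gstm6 (chromosome 3, 107938847 to 107943749) measured 7.95, 5.34 and 7.53 CPM in non-cystic, 7.27, 6.70 and 12.1 in F4/80-low and 34.6, 21.3 and 35.0 in F4/80-high sums, with all 3 F4/80-high values above all others. It rose by 2.11 ± 0.21 against non-cystic (adjusted p = 0.00014) and by 1.80 ± 0.21 against F4/80-low regions (adjusted p = 0.00123), in every one of 32 alternatives. The abundant Gstm5 had 583, 391 and 442 CPM in non-cystic, 502, 475 and 636 in F4/80-low and 610.3, 565 and 374 in F4/80-high sums and overlapped across all region types, with a 95% interval of -0.49 to 0.76 for the log2 fold change of F4/80-high against non-cystic. Gstm1 had 1133, 897 and 492 CPM in non-cystic, 712, 853 and 1084 in F4/80-low and 479, 489.5 and 376 in F4/80-high sums. Its F4/80-high sums lay below all others and the difference did not pass (-0.88 ± 0.34, adjusted p = 0.065), while 10 of 32 alternatives called it. The ratio of Gstm6 to Gstm1 counts was 0.00702, 0.00596 and 0.0153 in non-cystic and 0.0722, 0.0436 and 0.0929 in F4/80-high sums, a description of a pair chosen after its values were seen. Gstm2 (0.55 ± 0.31), Gstm4 (-0.47 ± 0.20) and Gstm7 (-0.32 ± 0.29) did not pass. Gstm6 shares a run of 125 bases with Gstm3, which had 42 counts in all, and runs of 32 to 38 bases with Gstm1, Gstm2 and Gstm7.

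Of the remaining GSTs, 7 fell and 2 rose in F4/80-high against non-cystic regions, where 19.5% and 19.7% of all genes did. Gstz1, which isomerizes maleylacetoacetate in tyrosine breakdown (chromosome 12, 87147165 to 87164723), had 572, 438 and 442 CPM in non-cystic, 365, 344 and 509 in F4/80-low and 96.2, 91.5 and 35.8 in F4/80-high sums and fell by 2.73 ± 0.38 (adjusted p = 0.000666). Of its exon bases 87.8% are free of the overlapping Pomt2 and Gm6566, on the other strand. Gstt2, of the theta class, had 1246, 832 and 809.9 CPM in non-cystic, 659.6, 682 and 1122 in F4/80-low and 286, 296 and 108 in F4/80-high sums and fell by 2.09 ± 0.43 (adjusted p = 0.00455). Gstp1, the main pi-class enzyme, had 498, 376 and 210.4 CPM in non-cystic, 229, 309 and 266 in F4/80-low and 112, 119 and 64.3 in F4/80-high sums and fell by 1.86 ± 0.28 (adjusted p = 0.000963). In all of these the 3 F4/80-high sums were below every non-cystic sum. Gstp2 shares a run of 369 bases with Gstp1 and fell by 2.59 ± 0.53 from at most 8.41 CPM in non-cystic sums, so its share of reads is uncertain.

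Gstk1, a kappa-class enzyme of mitochondria and peroxisomes, had 135, 106 and 106 CPM in non-cystic, 98.4, 83.8 and 123 in F4/80-low and 36.5, 43.3 and 19.9 in F4/80-high sums (-1.82 ± 0.29, adjusted p = 0.00128). Gstt1 had 369.5, 356 and 358 CPM in non-cystic, 251, 299.9 and 288 in F4/80-low and 166, 226 and 91.9 in F4/80-high sums (-1.22 ± 0.28, adjusted p = 0.00755), and missed the threshold without kidney 1 (-1.27, adjusted p = 0.0698). Gstt3 had 69.1, 68.0 and 62.4 CPM in non-cystic, 52.3, 53.1 and 47.6 in F4/80-low and 30.9, 36.4 and 18.7 in F4/80-high sums (-1.25 ± 0.19, adjusted p = 0.00101). In all of these kidney 3 was the lowest F4/80-high sum, and no F4/80-high sum reached a non-cystic one. Gsto1, which reduces dehydroascorbate and arsenic compounds, rose: it had 60.4, 56.4 and 73.9 CPM in non-cystic, 51.1, 48.9 and 43.5 in F4/80-low and 81.4, 84.5 and 115 in F4/80-high sums. All F4/80-low sums were below and all F4/80-high sums above the non-cystic ones. The rise was 0.56 ± 0.18 against non-cystic (adjusted p = 0.0334) and 0.95 ± 0.18 against F4/80-low regions (adjusted p = 0.00634). The first was lost without kidney 1 (0.60, adjusted p = 0.115), without kidney 2 (0.53, adjusted p = 0.203) and without any of 5 libraries, for example F4/80-high kidney 2 replicate 1 (0.45, adjusted p = 0.0949), and the second only without kidney 1 (1.09, adjusted p = 0.0501). Gstp3, with 8 counts over the non-cystic sums, measured 0.35, 0.22 and 0.08 CPM in non-cystic, 0.34, 5.32 and 3.08 in F4/80-low and 4, 1.93 and 2.26 in F4/80-high sums. It was higher in every F4/80-high than non-cystic sum (3.71 ± 1.01, adjusted p = 0.0179), and kidneys 2 and 3 of the F4/80-low regions, but not kidney 1, were within or above the range of the F4/80-high sums. Without kidney 3 the call was lost (3.51, adjusted p = 0.109). Gsto2 did not pass (-0.94 ± 0.52).

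Of 10 tested carboxylesterases 8 fell and 0 rose in F4/80-high against non-cystic regions, where 19.5% and 19.7% of all genes did. Ces1 enzymes hydrolyse triacylglycerol and cholesteryl esters as well as drugs, and the genes lie in a row on the minus strand of chromosome 8. Ces1f (chromosome 8, 93256236 to 93279747) measured 1414, 1036 and 1124 CPM in non-cystic, 883, 724 and 1185 in F4/80-low and 97.7, 89.6 and 13.1 in F4/80-high sums. Ces1d, a triacylglycerol hydrolase (chromosome 8, 93166068 to 93197838), had 432, 260.1 and 365 CPM in non-cystic, 321, 179 and 349.6 in F4/80-low and 38.4, 26.8 and 2.15 in F4/80-high sums. Ces1e had 109, 74.8 and 117 CPM in non-cystic, 67.4, 50.8 and 71.1 in F4/80-low and 4.89, 5.99 and 0.72 in F4/80-high sums. The F4/80-high sums of these genes were below all others, and kidney 3 was far below kidneys 1 and 2. Against non-cystic regions Ces1f fell by 4.28 ± 0.69 (adjusted p = 0.00226), Ces1d by 4.13 ± 0.93 (adjusted p = 0.0142) and Ces1e by 4.75 ± 0.68 (adjusted p = 0.00237). Ces1g, a lipase of lipoprotein metabolism, had 43.6, 21.8 and 85.7 CPM in non-cystic, 26.0, 3.22 and 18.7 in F4/80-low and 2.79, 0.35 and 0.28 in F4/80-high sums and fell by 5.72 ± 0.75 (adjusted p = 0.00164). In F4/80-low regions it stood at -1.96 ± 0.60 against non-cystic, lower in 3 of 3 kidneys and not called (adjusted p = 0.245). Ces1d missed the threshold without kidney 1 (-4.66, adjusted p = 0.0595), without kidney 2 (-4.84, adjusted p = 0.08) and with no filter beyond 1 count (-4.13, adjusted p = 0.0805). The other 3 calls were kept in all 32 alternatives.

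Ces2 enzymes prefer esters with a small acid and a large alcohol part, and the genes follow each other on the plus strand of chromosome 8. Ces2c (chromosome 8, 104847068 to 104854483), the most abundant, measured 423, 249 and 189 CPM in non-cystic, 244, 189 and 308 in F4/80-low and 30.1, 26.8 and 7.18 in F4/80-high sums. It fell by 3.79 ± 0.50 against non-cystic (adjusted p = 0.000932) and by 3.72 ± 0.51 against F4/80-low regions (adjusted p = 0.00281), both in all 32 alternatives. Ces2e had 23.9, 13.8 and 18.7 CPM in non-cystic, 19.0, 11.3 and 24.9 in F4/80-low and 5.94, 8.47 and 4.81 in F4/80-high sums and changed by -1.5 ± 0.34 (adjusted p = 0.00804), which was lost without kidney 1 (-1.24, adjusted p = 0.107). Ces2b (-2.59 ± 0.52) and Ces2h (-2.43 ± 0.40) were called lower from at most 10.1 CPM. Ces2f (1.03 ± 0.74) and Ces2g (0.08 ± 0.39), neighbours between Ces2e and Ces2h and at most 5.03 CPM in any sum, did not pass.

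**Figure D3:**
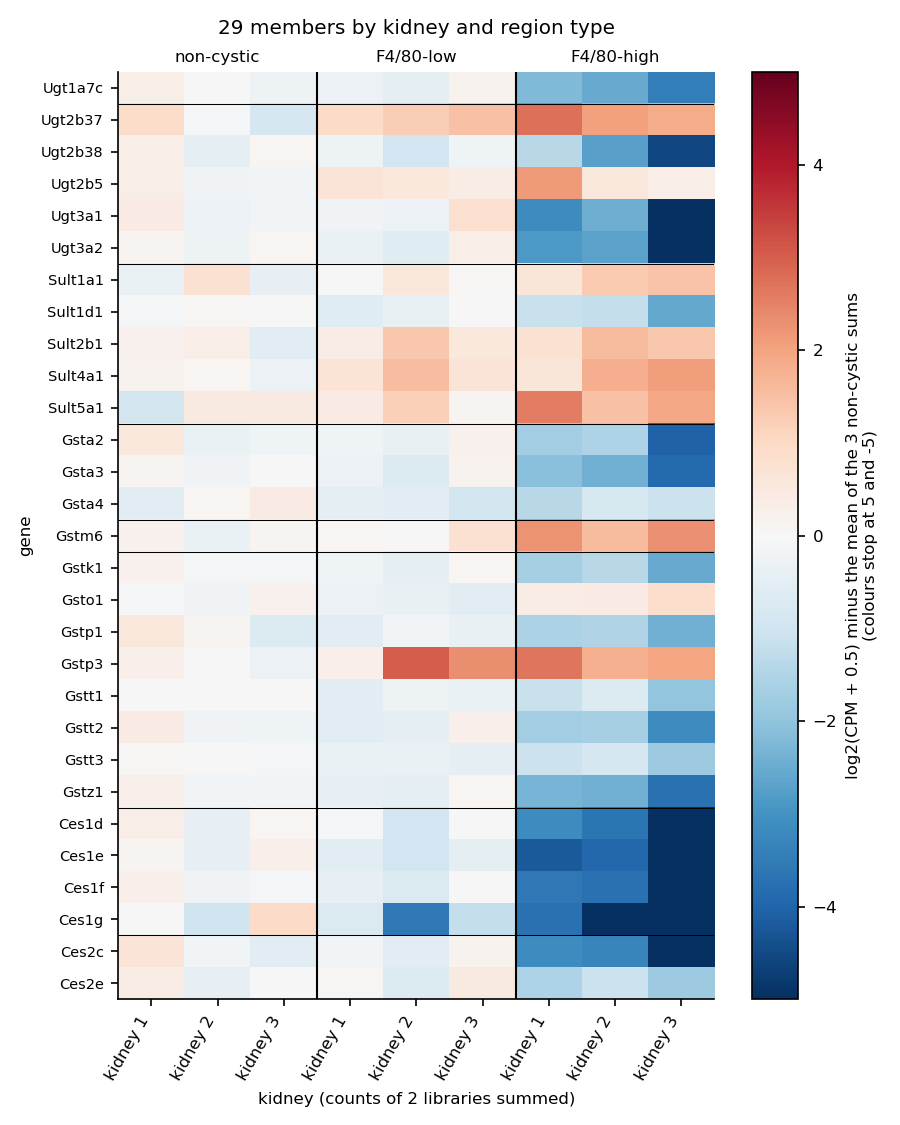
Log2(CPM + 0.5) minus the mean of the 3 non-cystic sums (colour) for the 29 genes given by kidney (rows, by family) in 9 sums (columns). In the F4/80-high columns most rows are blue and kidney 3 is the darkest, while Ugt2b37, Gstm6 and Gstp3 are red.

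Of the 27 genes lower in F4/80-high than in non-cystic regions, 23 had their lowest F4/80-high value in kidney 3. That is the kidney with the lowest proximal tubule and highest macrophage marker sums in F4/80-high tissue. The F4/80-high sum of kidney 3 also had the largest library size correction, 1.47 against 1.24 in kidney 1 and 1.18 in kidney 2. How many of all genes called lower had their lowest value in kidney 3 was not worked out. The count of 23 is thus a description, and its cause was not tested. Over the 10 proximal tubule markers the log2 fold change of F4/80-high against non-cystic ran from -4.33 to -2 with a median of -2.94. Of the 49 tested genes 17 lay in that range, 2 (Ces1e and Ces1g) below it and 30 above it.

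Sums by family put together reads that may have been split between close copies. Of 8 tested family sums 7 were lower in F4/80-high than in non-cystic regions. Ces1 fell by 4.30 ± 0.74 (adjusted p = 0.00292), Ces2 fell by 3.26 ± 0.39 (adjusted p = 0.000343), Ugt1a fell by 2.57 ± 0.28 (adjusted p = 0.000203) and the alpha GSTs fell by 2.21 ± 0.42 (adjusted p = 0.00306). The GSTs outside alpha and mu fell by 1.76 ± 0.36 (adjusted p = 0.00421), Ugt2 with Ugt3 by 1.63 ± 0.42 (adjusted p = 0.0117) and the sulfotransferases by 1.23 ± 0.36 (adjusted p = 0.0218). The sulfotransferase call was lost without the F4/80-high library kidney 1 replicate 2 (-0.99, adjusted p = 0.108), without kidney 1 (-1.53, adjusted p = 0.0632), without kidney 2 (-1.32, adjusted p = 0.104) and under total counts (-0.64, adjusted p = 0.0671). The mu-class sum did not pass (-0.32 ± 0.31, adjusted p = 0.449), and was 0.30 under scaling by total counts. It measured 1834, 1417 and 1050 CPM in non-cystic, 1341, 1513 and 1804 in F4/80-low and 1258, 1224 and 939 in F4/80-high sums, so that the values overlapped. The Ces1 sum measured 1998, 1394 and 1693 CPM in non-cystic, 1299, 957 and 1626 in F4/80-low and 144, 123 and 16.4 in F4/80-high sums. Whether families differ from each other in their change was not tested.

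The make-up of each class differed between F4/80-high and non-cystic regions, though no share was tested. Levels of different genes are compared as CPM per kilobase of exon not shared with another gene. Among the UGTs, Ugt2b38 made up 62.1% of the summed level in non-cystic and 27.2% in F4/80-high regions (means of 3 kidneys), Ugt3a2 27.4% and 7.06%, and Ugt2b37 4.89% and 62.5%. For Ugt2b37 the share in single kidneys lay between 2.40 and 6.79% in non-cystic, between 9.83 and 16.5% in F4/80-low and between 50.8 and 81.4% in F4/80-high tissue. Ugt2b37 was thus the leading UGT in each F4/80-high sum and in no other sum. Among the GSTs, Gstm5 went from 17.3% to 35.6%, while Gstm1 was at 22.4% and 23.5% and Gsta2 at 14.0% and 5.64%. Among the sulfotransferases, Sult1d1 remained first, at 74.1% and 56.2%, and Sult1a1 went from 2.21% to 12.7%. Among the carboxylesterases, Ces1f led in both, at 51.0% and 41.8%. In F4/80-low regions the mean share was 53.1% for Ugt2b38, 28.0% for Ugt3a2, 20.9% for Gstm5 and 13.6% for Gsta2. It was 73.8% there for Sult1d1, 3.08% for Sult1a1 and 51.1% for Ces1f, close to the non-cystic shares. The level of Gstm5 itself overlapped between region types.

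**Figure D4:**
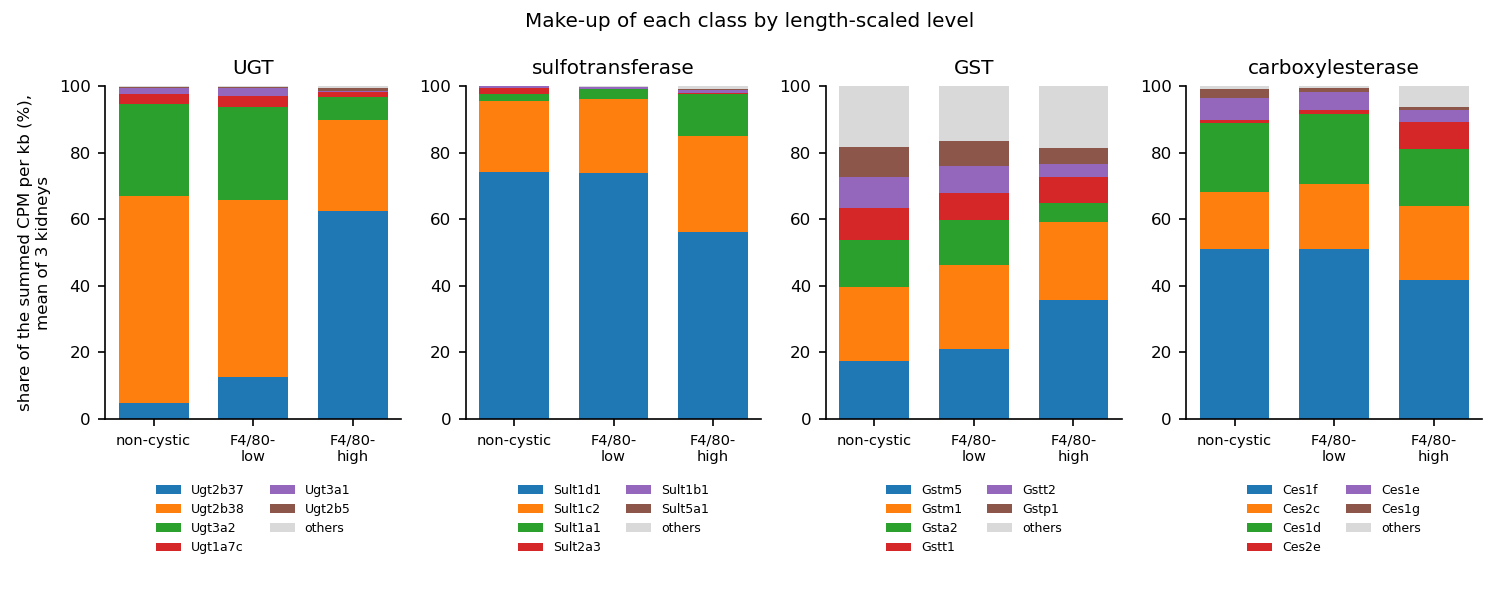
Share (y axis, %, mean of 3 kidneys) of single genes in the summed CPM per kilobase of their class in non-cystic, F4/80-low and F4/80-high regions (x axis); the 6 genes with the largest shares are coloured and the rest grey. The Ugt2b37 share is 4.89% in the non-cystic and 62.5% in the F4/80-high bar.

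Around F4/80-low cysts none of the 49 tested genes passed in edgeR's quasi-likelihood test. The median log2 fold change over the 49 was -0.17, and 3 were higher and 4 lower at an unadjusted p below 0.05, where 1499 and 376 of all 16034 genes were. The DESeq2 Wald test, which called 601 of all genes higher and 74 lower, called 2 of the 49 higher (Gstp3 3.71, adjusted p = 0.0033; Ugt2b37 1.22, adjusted p = 0.0205) and 2 lower (Ces1g -2.04, adjusted p = 0.00289; Sult2a3 -5.31, adjusted p = 0.0148). The 95% intervals bound what was measured: -1.68 to 0.79 for Ugt2b38, -1.68 to 1.09 for Ces1f, -1.11 to 0.98 for Ces2c, -0.41 to 0.83 for Gstm5 and -1.14 to 0.73 for Gsta3. For Gstm6 the interval was -0.17 to 0.79, and for Sult1a1 -0.37 to 0.75. A fall by 1 on the log2 scale was therefore within the intervals of Ugt2b38, Ces1f, Ces2c and Gsta3 and outside those of Gstm5, Gstm6 and Sult1a1. In the F4/80-low library kidney 2 replicate 2 the injury gene Spp1 took 8.90% of the counts. Without it, calls over all genes in this comparison went from 242 higher and 4 lower to 31 and 0. As there was no call among the 49, none could be lost.

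Between the cystic region types, 23 genes were lower and 3 higher (Gstm6, Sult1a1 and Gsto1) in F4/80-high than in F4/80-low regions. This comparison shares its F4/80-high sums with the one against non-cystic tissue. The log2 fold changes were -3.99 for Ces1f, -4.08 for Ces1e, -3.27 for Ugt3a2, -2.47 for Gsta3, -2.52 for Gstz1 and -2.20 for Ugt2b38. Ugt2b37 stood 0.91 ± 0.37 higher, in 3 of 3 kidneys, and did not pass (adjusted p = 0.101). Of these calls, 10 of the 23 lower ones were kept whichever library was left out, and 5 genes were called lower without kidney 1. Over all genes the lower calls went from 2246 to 521 without kidney 1. Ces2c, Gstp1, Gstz1 and Ugt1a7c were kept in all 32 alternatives.

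Of 8 genes that serve the supply of UDP-glucuronate and PAPS, 6 fell and 0 rose in F4/80-high against non-cystic regions (median -1.20). For this and the lists that follow, 19.5% of all genes fell and 19.7% rose in the same comparison. The PAPS carriers Slc35b2 (0.41, adjusted p = 0.221) and Slc35b3 (0.40, adjusted p = 0.135) did not pass. The largest fall was that of the PAPS synthase Papss2, from 149.8 ± 25.4 (SD, n = 3) to 22.8 ± 5.47 CPM (-2.70 ± 0.26, adjusted p = 0.000102). Ugdh, which makes UDP-glucuronate, went from 90.7 ± 8.25 to 35.8 ± 6.80 CPM (-1.33 ± 0.22, adjusted p = 0.00139). Of 5 glutathione supply genes 4 fell (median -1.72), among them both subunits of glutamate-cysteine ligase, Gclc (-1.85) and Gclm (-1.72). All 6 genes of the mercapturate path fell (median -3.08), from Anpep at -1.45 to the aminoacylase Acy3 at -4.05, and Ggt1, which starts the trimming of glutathione conjugates, went from 732 ± 166 to 79.7 ± 55.8 CPM. Of 3 microsomal GSTs, Mgst3 fell (-1.17), Mgst2 rose from at most 0.18 CPM (3.75) and Mgst1 did not pass (0.05). None of the genes of the 10 related lists passed in F4/80-low against non-cystic regions.

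Of 11 other conjugating enzymes 6 fell and 1 rose in F4/80-high against non-cystic regions, where 19.5% and 19.7% of all genes did. The one that rose, the nicotinamide methyltransferase Nnmt, went from 0.97, 3.66 and 0.93 CPM in non-cystic over 6.93, 7.23 and 6.02 in F4/80-low to 25.5, 21.9 and 26.6 in F4/80-high sums (3.84 ± 0.43, adjusted p = 0.000302), with no overlap between region types. The glycine-conjugating Glyat (-2.34) and Keg1 (-2.67), which is also 1 of the 10 proximal tubule markers, the acyl-CoA synthetases Acsm2 (-3.68) and Acsm3 (-4.30) and the methyltransferases Inmt (-4.64) and Tpmt (-1.79) fell. Of 5 tested other hydrolases, the epoxide hydrolase Ephx1 (1.23) and the lactonase Pon2 (0.76) rose and Ephx2 fell (-1.96). Among 3 deconjugating enzymes, the sulfatase Arsb fell (-2.26) and Gusb and Arsa did not pass. Of 5 exporters of conjugates, Abcc2 (-2.12), Abcg2 (-1.79) and Abcc4 (-0.68) fell, and Abcc3, which sits in the basolateral membrane, rose from 1.44 ± 0.221 to 10.5 ± 2.96 CPM (2.84 ± 0.36, adjusted p = 0.000441).

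**Figure D5:**
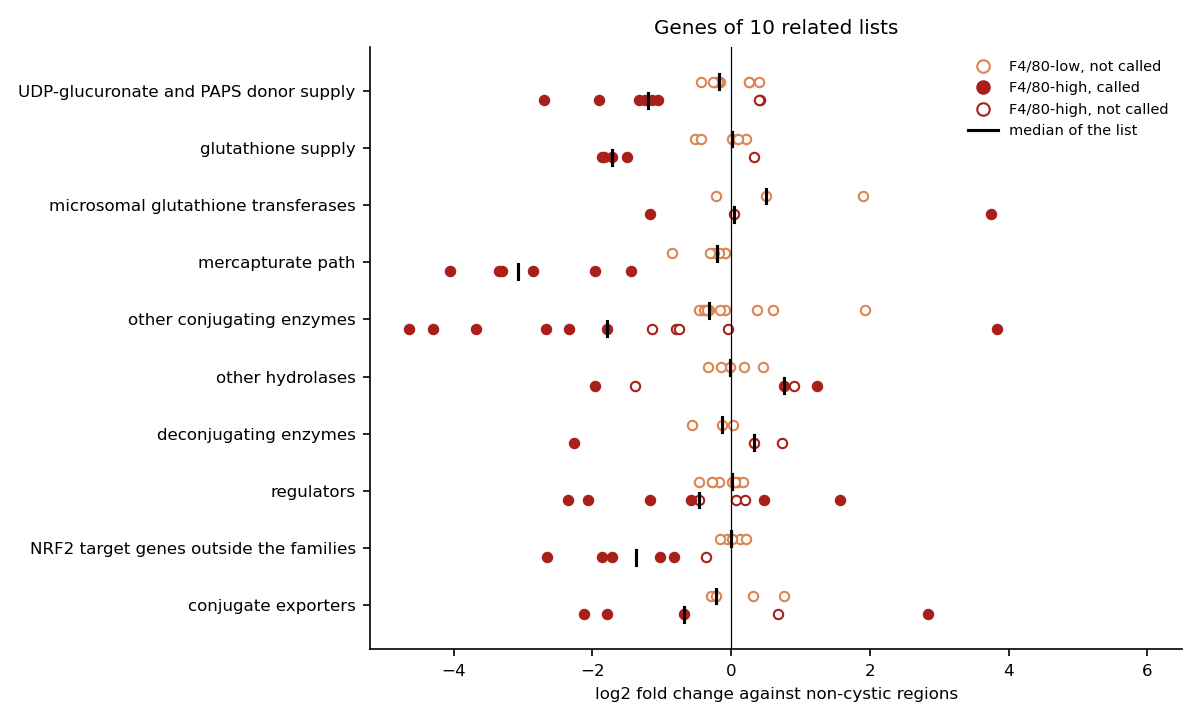
Log2 fold change (x axis) of the genes of 10 related lists (y axis) in F4/80-low (orange) and F4/80-high (red) against non-cystic regions; filled points are called and black bars are list medians. The mercapturate path has the lowest F4/80-high median (-3.08), and no F4/80-low point is filled.

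Of 9 regulators of these genes, 8 transcription factors and the NRF2 repressor Keap1, 4 fell and 2 rose around F4/80-high cysts. Against non-cystic regions 19.5% of all genes fell and 19.7% rose, so the share of regulators that rose was near the general one. Hnf4a, a nuclear receptor of proximal tubule and liver, had 254, 237 and 252 CPM in non-cystic, 171, 151 and 215 in F4/80-low and 70.8, 77.1 and 33.5 in F4/80-high sums (-2.06 ± 0.31, adjusted p = 0.00101). Ppara (-2.36), Rxra (-1.17) and Nr1i3 (-0.57) also fell. Ahr, the aryl hydrocarbon receptor, rose (1.57 ± 0.34, adjusted p = 0.00559), as did Nfe2l2, which encodes NRF2, the activator of antioxidant genes (0.47 ± 0.16, adjusted p = 0.0426). Of 6 NRF2 target genes outside the 4 classes, 2 of which are also in the glutathione list, 5 fell and 0 rose, with Nqo1 at -2.66 ± 0.40 (adjusted p = 0.00175).

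Promoter letters were searched for the antioxidant response element, TGACNNNGC, on both strands. RefSeq windows of 300 bases (GRCm38.p6) were at hand for 52 of the 61 genes, 62 windows in all. TGACNNNGC occurred in 3 of the 62 windows (4.8%) and in 12.4% of 32851 windows of all genes. The 3 windows belong to Gsta3, Gstm5 and Gstm7. Only this spelling was counted, so forms of the element that differ at a fixed base, and sites outside the windows, would be missed. The alpha GST Gsta3, which fell, and the mu GST Gstm5, which did not pass, both hold TGACNNNGC and are shown for that reason, from 250 bases before to 50 after the start on the plus strand (chr1:21240335-21240634 and chr3:107895604-107895903), with the match in capitals.
Gsta3: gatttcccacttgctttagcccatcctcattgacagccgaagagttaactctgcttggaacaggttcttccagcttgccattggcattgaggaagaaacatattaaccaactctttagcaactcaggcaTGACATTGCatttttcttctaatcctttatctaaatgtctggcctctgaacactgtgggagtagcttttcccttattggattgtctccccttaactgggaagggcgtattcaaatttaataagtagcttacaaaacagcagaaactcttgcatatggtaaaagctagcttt
Gstm5: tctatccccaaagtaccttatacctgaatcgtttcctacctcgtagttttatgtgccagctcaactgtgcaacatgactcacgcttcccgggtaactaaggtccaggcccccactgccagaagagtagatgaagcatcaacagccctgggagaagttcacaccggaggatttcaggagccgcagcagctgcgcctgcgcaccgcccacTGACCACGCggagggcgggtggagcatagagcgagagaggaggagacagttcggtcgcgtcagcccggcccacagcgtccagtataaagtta

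The response element match starts 121 bases before the start of Gsta3 and 42 bases before that of Gstm5. The Ugt2b37 and Ugt2b38 windows printed above hold no match. A match is a run of letters and was not tested for binding.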

How the data were processed

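The authors deposited whole-number read counts per Ensembl gene for 18 libraries, made with a low-input kit that keeps no strand, per the labels' protocols. FastQC 0.11.9, fastp 0.20.1, HTSeq 0.11.0 and the build mm10 (GRCm38) are named in the submitters' processing notes, and for the aligner, the annotation release and the use of strand, a name or setting is not given in the sources used here. Reads of overlapping or near-identical genes may therefore be dropped or misplaced. In the table, 127 gene IDs have no symbol.

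Counts of the 2 libraries of each kidney and region type were summed to 9 sums, since libraries of a kidney are not independent. They were tested in R 4.3.3 with the quasi-likelihood test of edgeR 4.0.16 (trimmed mean of M values, filterByExpr, robust, kidney as block, 4 residual degrees of freedom) and Benjamini-Hochberg adjustment over 16034 genes. The SE is the log2 fold change divided by the root of F. Sums of a kidney come from the same organ, which sets the pairing; correlations of their deviations from the region means ran from -0.154 to 0.275. Because separate animals are not stated, p-values measure how far the region differences vary between these kidneys only. Values by kidney are given for genes called in any comparison and averaging 3 or more in log2 CPM, and for all called higher; the others are summarised. Promoters came from RefSeq (GRCm38.p6). Some listed regulators and a further promoter motif are not reported here. The fit code was run on simulated counts with fewer changed genes than here, which does not test how it behaves on these data. Alternatives used DESeq2 1.42.0 and limma 3.58.1, other scalings, filters and blocks, and left out each library and kidney. Members and lists were chosen with earlier results of these data known.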

Additional observations from a re-analysis of the deposited data

Results flagged for a closer look

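Within each region type, the 6 single libraries of the 29 genes given by kidney were searched for a highest or lowest value far from the other 5, by the gap to the nearest value over the whole range, both on the log2(CPM + 0.5) scale (Dixon's 95% critical value for 6 values). This held for 8 of 87 groups. The critical value assumes 6 independent values, but libraries of a kidney are not independent and the 29 genes share the same libraries. The number expected by chance is therefore not known. Among F4/80-low libraries, Ces1d and Ces1e were lowest in kidney 2 replicate 2, at 85.4 CPM (next 251) and 22.9 CPM (next 63.2). Gstt1 was lowest in F4/80-low kidney 1 replicate 2, at 201 CPM (next 273), and Sult5a1 highest in F4/80-low kidney 2 replicate 1, at 2.35 CPM (next 0.82). Among F4/80-high libraries, Ces1g reached 5.48 CPM (next 0.51) and Ugt2b37 1207 CPM (next 599) in kidney 1 replicate 1. Ugt1a7c and Ugt3a2 were lowest in F4/80-high kidney 3 replicate 1, at 4.67 CPM (next 12.0) and 1.12 CPM (next 39.6).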

How the results depend on the processing

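Of 2370 alternative values of the 75 called results 0 changed sign and 187 lost the call; of 2987 values of the 96 results not called, 144 changed sign and 79 were called. In F4/80-low against non-cystic regions DESeq2 called 2 genes higher and 2 lower; 1 was lower with 18 libraries and the kidney as block, with the kidney and replicate number as replicate block, and with only the 2 region types compared, and leaving out a library or kidney gave 0 to 1. In F4/80-high against non-cystic regions 5 genes were higher with at least 50 counts required in 3 sums. Leaving out a library or kidney gave 4 to 9 higher and 16 to 30 lower (16 without kidney 1). Without kidney 1 the lower calls over all genes in this comparison went from 3133 to 1622. Fitting 18 libraries with the kidney and replicate number as replicate block tested 43 of the genes, with 8 higher and 28 lower; fitting the 9 sums with no kidney block tested 49, with 9 and 28. In F4/80-high against F4/80-low regions 5 were higher under total counts, DESeq2, 18 libraries with the kidney as block and limma voom. With only the 2 region types compared 11 were lower, and leaving out gave 2 to 4 higher and 5 to 26 lower (5 without kidney 1, 15 without kidney 2). Lower calls over all genes went there from 2246 to 521 without kidney 1 and to 1353 without kidney 2. With only the 2 region types compared they numbered 1293. Lower families numbered 4 to 7 and 2 to 7 in these comparisons when 1 library or kidney was left out (4 and 2 without kidney 1). The cause of these shifts was not tested. Scaling by total counts moved the median of all genes in F4/80-high against non-cystic regions from 0.04 to 0.65 and the share of higher among called genes from 50.2% to 81.9%; among the 4 classes 12 were then higher and 24 lower, with Gstm5 (0.74, adjusted p = 0.0100) and Gstm2 (1.17, adjusted p = 0.0352) called higher. In F4/80-high against F4/80-low regions that share went from 42.3% to 79.0%, and to 53.1% under upper-quartile scaling. Genes below about 1 CPM rest on few counts.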
